A study of Mus musculus with 10 samples.

Results

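The 10 genes described here encode the lipid-handling and scavenger proteins of macrophages. They were chosen by name as Cd36, Msr1, Cd5l, Lpl, Apoe, Fabp4, Fabp5, Trem2, Gpnmb and Spp1, and were read from a table of 17279 genes by their gene symbols. Of the 10, 9 were listed in the table, Cd5l was not listed, and 8 of them passed a filter on low counts that left 16949 genes for testing. The filter removed Fabp4. Cd5l encodes a secreted scavenger protein of tissue macrophages, and as every listed gene had at least 10 counts in at least 2 libraries, its level is not known here.

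The libraries were made from macrophages of the small-intestinal lamina propria, which were collected by flow cytometry as CX3CR1-GFP+ cells from the peeled mucosal layer 24 h after surgery. The sham group (n = 5) underwent the surgery without arterial occlusion and the pMCAO group (n = 5) underwent permanent middle cerebral artery occlusion, a model of ischaemic stroke without reperfusion. Both groups are labelled C57BL6/J, and the reporter allele behind the GFP signal does not stand in the genotype labels. The labels call the libraries biological replicates, the name of replicate 1 of each group marks it as a pool, and the labels do not say how many animals the other libraries hold. Ages are not given in the labels.

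Macrophages that meet modified lipoproteins, dying cells or dietary fat take up lipid through scavenger receptors, among them CD36 and the class A receptor MSR1. The lipid is bound in the cytosol by fatty acid binding proteins, stored in droplets, or exported with apolipoprotein E through the ABC transporters that the liver X receptors (LXR) induce. TREM2, GPNMB and osteopontin (Spp1) mark a lipid-associated macrophage state known from adipose tissue, atherosclerotic plaques and demyelinated brain. In the intestine, most lamina propria macrophages are replenished from blood monocytes, and many lie directly beneath the absorptive epithelium.

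The bases before the transcription start are shown for 3 of the genes. Cd36 and Gpnmb each belong to a pair of genes that varied together over the libraries, and Trem2 had the smallest unadjusted p of the members between groups. Each sequence is the 250 bases before a RefSeq start on GRCm38.p6, written 5′ to 3′ on the strand of the gene, with matches to any of 4 motifs in capitals. The windows are chr5:17835897-17836146 on the minus strand for Cd36, chr6:49036268-49036517 on the plus strand for Gpnmb and chr17:48346151-48346400 on the plus strand for Trem2. The Cd36 window lies in an intron of longer Cd36 transcripts of GENCODE M21, and the other windows lie upstream of their genes.
Cd36: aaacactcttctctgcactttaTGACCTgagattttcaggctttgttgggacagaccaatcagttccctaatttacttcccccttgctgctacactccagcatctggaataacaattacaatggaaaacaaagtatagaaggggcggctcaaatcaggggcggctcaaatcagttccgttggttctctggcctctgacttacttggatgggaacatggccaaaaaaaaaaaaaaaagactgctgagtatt
Gpnmb: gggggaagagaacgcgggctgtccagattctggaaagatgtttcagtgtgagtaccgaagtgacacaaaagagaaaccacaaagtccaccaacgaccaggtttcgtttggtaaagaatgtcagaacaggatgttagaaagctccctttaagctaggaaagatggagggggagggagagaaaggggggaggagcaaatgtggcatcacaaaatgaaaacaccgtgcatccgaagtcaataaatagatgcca
Trem2: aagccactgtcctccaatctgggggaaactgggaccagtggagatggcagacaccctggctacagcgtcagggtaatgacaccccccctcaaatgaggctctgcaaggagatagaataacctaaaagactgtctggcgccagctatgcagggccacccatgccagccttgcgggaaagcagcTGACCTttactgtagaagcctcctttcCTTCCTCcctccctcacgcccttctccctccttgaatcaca
The motifs were searched on both strands and do not overlap one another in these windows. AGGTCA, the core element of nuclear receptors such as PPAR and LXR, began 228 bases before the start in Cd36 and 68 bases before it in Trem2, both on the opposite strand, so that the strand shown reads TGACCT. This motif was held by 14.02% of 32851 promoter windows of the same length. GAGGAAG, a site of the ETS factor PU.1, began 41 bases before the start of Trem2, also on the opposite strand (CTTCCTC as shown), and was held by 10.6% of the windows. Neither CACGTG (6.02% of windows) nor TCATGTG (3.25%), the E-box and the M-box core bound by MITF and its relatives, stood in the 3 windows. Apoe and Spp1 were searched in the same way. Spp1 held GAGGAAG 113 bases before 1 of its starts on its own strand, and Apoe held none of the 4 motifs. RefSeq windows were not at hand for Msr1, Lpl, Fabp4 and Fabp5.

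Sequencing depth differed between the groups, with 18894151 to 60665972 counts per sham library and 6430643 to 28672285 per pMCAO library. All 15 macrophage markers were listed, and their summed level was 15148 to 31256 CPM (counts scaled to the size of the library, here with TMM factors) in the sham group and 18196 to 31838 CPM in the pMCAO group. The highest of these markers was Lyz2 (6722 CPM on average), followed by the MHC class II pathway genes Cd74 (5839 CPM) and H2-Ab1 (4317 CPM). The libraries also held B and plasma cell markers, led by Igha, at 3428 to 110879 CPM, and T cell markers, led by Cd4, at 208 to 471 CPM. Cd4 alone averaged 141 CPM, and the next T cell marker, Trac, 29.2 CPM. Enterocyte markers, led by Fabp2, were at 372 to 1037 CPM in sham and 210 to 1581 CPM in pMCAO, with the highest sum in pMCAO replicate 2. Dendritic cell markers, led by Dpp4, were at 250 to 724 CPM in sham and 299 to 683 CPM in pMCAO. The summed neutrophil, eosinophil and mast cell markers were at 1296 to 10790 CPM in sham and 434 to 3694 CPM in pMCAO (exact permutation test, p = 0.0476, adjusted over 8 lists 0.381). Most of that sum was the mast cell protease gene Mcpt1, with 4387 CPM on average in sham and 1213 CPM in pMCAO. The list, which mixes cell types, did not move one way. Its mast cell genes Mcpt1 (log2 fold change −1.86, SE 0.68), Cpa3 (−1.17, SE 0.61) and Kit (−0.72, SE 0.57) were lower in pMCAO. Of its 8 genes tested, 3 had log2 fold changes above 0, among them the eosinophil receptor gene Ccr3 (2.09, SE 0.75), and the median of the list was −0.071. None passed an adjusted p of 0.05 (edgeR). Cpa3, Kit and Ccr3 are named after their values were seen. S100a9, Ly6g and Epx were not listed. None of 8 adipocyte markers was listed. Sham replicate 5 and pMCAO replicate 4 stood apart by Xist, the RNA of the inactive X chromosome. Its level was 1756 CPM in the former and 4461 CPM in the latter, and elsewhere it did not exceed 4.92 CPM. Results are therefore also given without these libraries where they differ.

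In these sorted cells Apoe stood far above the other members. Compared per kilobase of transcript (CPM per kb of the longest consensus coding transcript), Apoe had a mean level of 2629 ± 955 (SD, n = 10) and ranked 25 of the 17193 genes with a length. Msr1 followed at 90.4 ± 31.3 CPM per kb and Cd36 at 45.01 ± 33.5 CPM per kb. Trem2 was at 18.3 ± 10.5 CPM per kb, Fabp5 at 6.88 ± 4.58 and Lpl at 6.51 ± 3.39. The lowest levels per kb were those of Spp1 (2.60 ± 2.11), Gpnmb (2.33 ± 1.87) and Fabp4 (1.59 ± 3.25). Neighbours in this order were compared within each of the 10 libraries by exact sign-flip tests, two-sided, adjusted over the 8 comparisons. The order itself came from the same 10 libraries. The p-values therefore describe how steady each step was and are not independent support for the order. Apoe exceeded Msr1 in 10 of 10 libraries, by 4.86 ± 0.41 on the log2 scale (SD, exact adjusted p = 0.00781). The steps from Msr1 to Cd36 and from Trem2 to Fabp5 each held in 9 of 10 libraries, and the step from Cd36 to Trem2 in 10 of 10 (exact adjusted p = 0.00781 for each). Lpl exceeded Spp1 in 9 of 10 libraries (exact adjusted p = 0.0219). Fabp5 and Lpl did not differ beyond their spread (mean log2 ratio −0.00051 ± 1.13, exact adjusted p = 1.0), nor did Spp1 and Gpnmb (−0.050 ± 1.53, exact adjusted p = 1.0) or Gpnmb and Fabp4 (1.65 ± 2.71, exact adjusted p = 0.115). With the union of all annotated exons as the length, a choice made after seeing the data, Lpl came next after Trem2 and Fabp5 fell below Spp1. With that length Lpl and Spp1 no longer differed beyond their spread (6 of 10 libraries, exact adjusted p = 0.408), and Gpnmb exceeded Fabp4 (9 of 10 libraries, exact adjusted p = 0.0156).

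Between pMCAO and sham libraries, the members did not separate. By edgeR's quasi-likelihood test, 0 of the 8 members tested passed an adjusted p of 0.05, and 0 had an unadjusted p below 0.05. Over all 16949 genes, 0.0% passed the adjusted threshold and 4.71% had an unadjusted p below 0.05. The groups overlapped for all 9 listed members, whereas they did not overlap for 0.985% of all genes tested. The edgeR fold changes pointed upwards in 6 members and downwards in 2, with a median of 0.34 on the log2 scale beside −0.0059 for all genes tested, of which 49.4% were above 0. This split depended on the measure. The difference of mean log2 CPM was below 0 for Msr1 (−0.082), Fabp5 (−0.096) and Spp1 (−0.12). It was 0.0024 for Apoe, 0.27 for Gpnmb, 0.47 for Cd36, 0.54 for Lpl and 0.61 for Trem2. The spread within groups was wide, with a median SD of 0.99 (log2 CPM) over the 9 listed members against 0.58 over all genes tested.

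**Figure D1:**
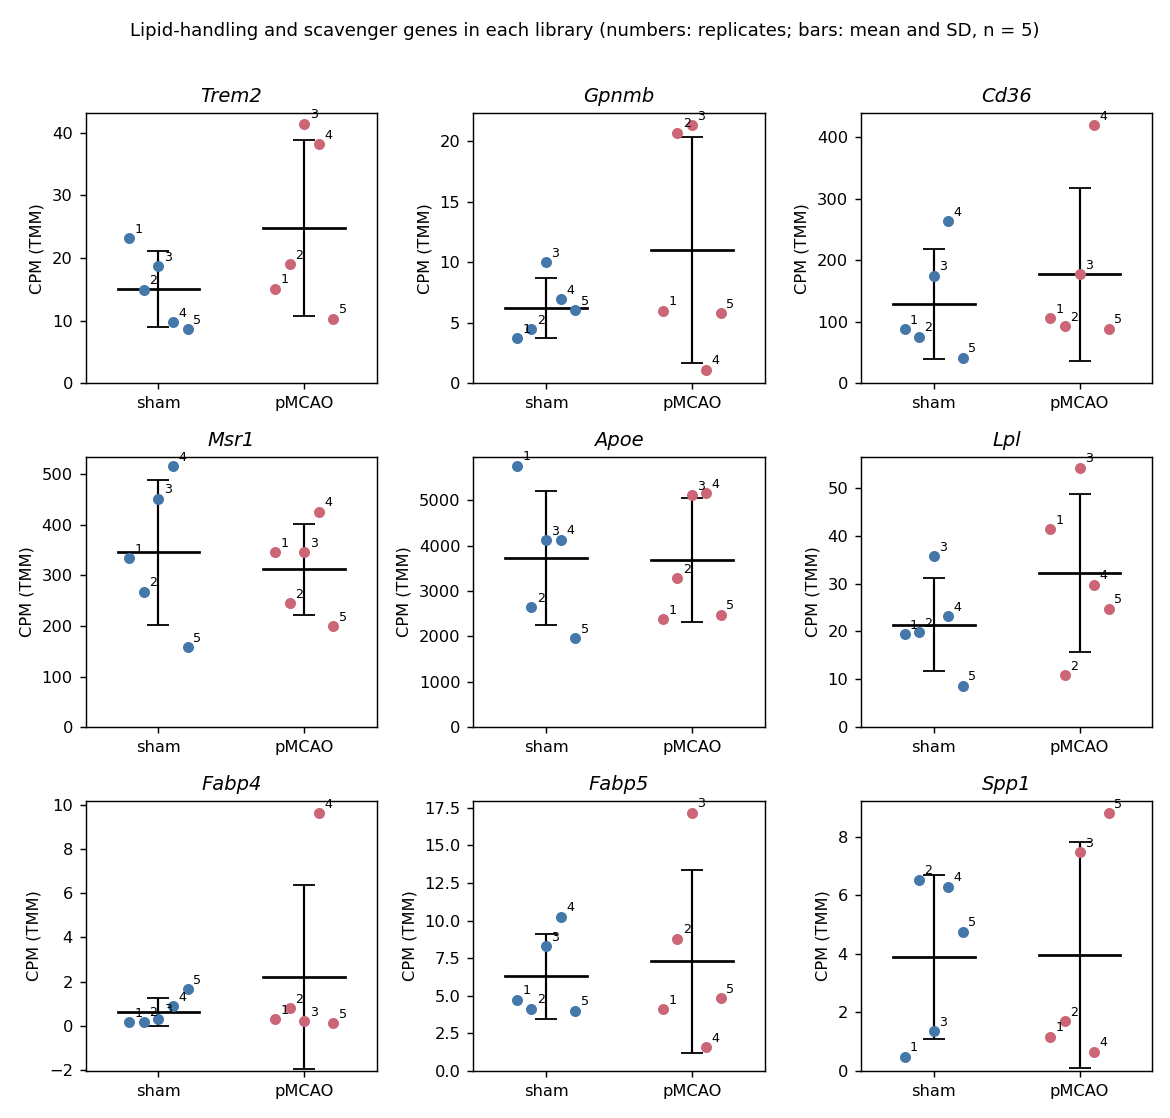
Level of each listed gene in each library, in CPM scaled by TMM on linear axes, with sham in blue and pMCAO in red, replicate numbers beside the points, and the mean and SD of 5 libraries in black. The groups overlap for every gene, and the pMCAO libraries that lie above all sham libraries include replicate 3 for Trem2, Gpnmb, Lpl and Fabp5 and replicate 4 for Trem2, Cd36 and Fabp4. The SD of Fabp4 in pMCAO reaches below 0.

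Among the surface receptors, Trem2, which binds lipids and apolipoproteins and signals through the adaptor TYROBP, was measured at 23.2, 15.0, 18.7, 9.81 and 8.68 CPM in sham replicates 1 to 5. In pMCAO replicates 1 to 5 it was at 15.1, 19.0, 41.4, 38.1 and 10.3 CPM. Replicates 3 and 4 of the pMCAO group exceeded every sham library and the other 3 lay within the sham range. The fold change was 1.64 (log2 0.72, SE 0.41, 95% interval −0.17 to 1.60, edgeR adjusted p = 0.922, 0.103 unadjusted). Without both pools the log2 fold change was 1.06 (SE 0.45), below an unadjusted p of 0.05, and without sham replicate 5 and pMCAO replicate 4 it was 0.36 (SE 0.43). The gene lies on chromosome 17 (48346401 to 48354147, plus strand).

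Cd36, a class B scavenger receptor for oxidised lipoproteins and long-chain fatty acids, was at 88.4, 76.1, 175, 263 and 42.0 CPM in sham replicates 1 to 5. The pMCAO replicates gave 106, 93.2, 177, 419 and 88.9 CPM. All 5 pMCAO libraries were above the sham median, yet only replicate 4 was above the sham range. The log2 fold change was 0.46 (SE 0.53, 95% interval −0.70 to 1.62, edgeR adjusted p = 0.943), and it turned to −0.15 without pMCAO replicate 4 and to −0.37 without both that library and sham replicate 5. Cd36 spans 17781690 to 17888801 on the minus strand of chromosome 5.

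For Msr1, the class A scavenger receptor, the sham replicates were at 334, 268, 451, 516 and 158 CPM. The pMCAO replicates were at 345, 245, 346, 426 and 200 CPM, all inside the sham range. The log2 fold change was −0.15 (SE 0.30, 95% interval −0.81 to 0.52, edgeR adjusted p = 0.969). Msr1 (chromosome 8, 39581685 to 39642673, minus strand) varied less than most members, with an SD within groups of 0.57 on the log2 scale, which exceeds that of 49.5% of all genes tested.

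Gpnmb, a transmembrane glycoprotein of lysosomes that is controlled by MITF and its relatives, was at 3.74, 4.46, 10.02, 6.98 and 6.04 CPM in the sham replicates. Its values in pMCAO were 6.01, 20.7, 21.3, 1.15 and 5.82 CPM. Replicates 2 and 3 were more than the sham maximum and replicate 4 was below the sham minimum, where the level rests on 14 counts. The log2 fold change of 0.82 (SE 0.62, 95% interval −0.53 to 2.17) did not pass the test (edgeR adjusted p = 0.922). Without pMCAO replicate 4 it was 1.10 (SE 0.47), below an unadjusted p of 0.05. Without pMCAO replicate 2 it was 0.45 (SE 0.64) and without pMCAO replicate 3 it was 0.43 (SE 0.63), neither below that level.

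**Figure D2:**
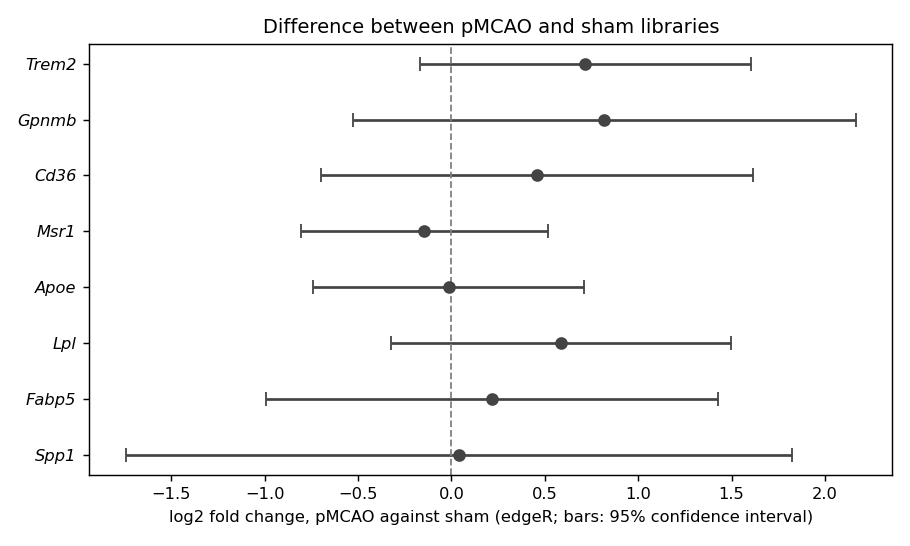
Log2 fold change of pMCAO against sham for the 8 members tested, with 95% confidence intervals from edgeR. All 8 intervals cross 0, and the widest is that of Spp1 (−1.74 to 1.82).

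The secreted members spanned most of the range of levels. Apoe, the apolipoprotein that carries cholesterol out of macrophages and is a ligand of TREM2, was at 5761, 2636, 4115, 4129 and 1965 CPM in the sham replicates and at 2378, 3286, 5114, 5155 and 2482 CPM in the pMCAO replicates. Every pMCAO library lay inside the sham range, and the means of 3721 ± 1479 CPM (SD, n = 5) in sham and 3683 ± 1371 CPM (SD, n = 5) in pMCAO were nearly equal. The log2 fold change was −0.015 (SE 0.33, 95% interval −0.74 to 0.71, edgeR adjusted p = 0.999), and its sign turned under 11 of 20 other settings. Apoe lies on chromosome 7 (19696109 to 19699188, minus strand).

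Lpl encodes lipoprotein lipase, which releases fatty acids from triglyceride-rich lipoproteins. Sham replicates were at 19.5, 19.8, 35.8, 23.1 and 8.69 CPM, and pMCAO replicates at 41.3, 10.9, 54.2, 29.8 and 24.7 CPM. Replicates 1 and 3 of the pMCAO group exceeded every sham library, and 4 of 5 exceeded the sham mean. The log2 fold change was 0.59 (SE 0.42, 95% interval −0.32 to 1.49, edgeR adjusted p = 0.922), and it was 0.81 (SE 0.36), below an unadjusted p of 0.05, without pMCAO replicate 2. Without pMCAO replicate 3 it was 0.31 (SE 0.42), not below that level. Lpl spans 68880491 to 68907448 on the plus strand of chromosome 8.

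Spp1 encodes osteopontin, a secreted ligand of CD44 and of αv and α4 integrins. In sham it was at 0.489, 6.53, 1.35, 6.29 and 4.76 CPM, and in pMCAO at 1.17, 1.69, 7.48, 0.656 and 8.80 CPM. High and low libraries occurred in both groups, and the spread of 18.0-fold over the 10 libraries was far wider than the difference between groups (log2 0.039, SE 0.82, edgeR adjusted p = 0.999). As few as 8 counts stood behind a library's value. Spp1 shares exon sequence on its own strand with the unreviewed gene model Gm42793, which was not listed in the table. It lies on chromosome 5 (104435118 to 104441050, plus strand).

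The fatty acid binding proteins, which carry fatty acids in the cytosol, were low. Fabp5 was at 4.75, 4.14, 8.30, 10.3 and 4.00 CPM in sham and at 4.10, 8.79, 17.2, 1.56 and 4.84 CPM in pMCAO. Replicate 3 of the pMCAO group was the highest of all libraries and replicate 4 the lowest. The log2 fold change was 0.22 (SE 0.56, 95% interval −0.99 to 1.43, edgeR adjusted p = 0.974), and without pMCAO replicate 3 it was −0.37. Fabp5 (chromosome 3, 10012548 to 10016607, plus strand) has 5 processed pseudogenes with 93.6% to 98.3% identity over 336 to 409 bases, of which only Gm6166 was listed, so its counts are uncertain to the extent that reads were split or dropped.

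Fabp4, best known from adipocytes, macrophages and capillary endothelium, was held by few reads. The counts were 5, 6, 11, 14 and 128 in the sham replicates and 2, 21, 2, 117 and 4 in the pMCAO replicates. In CPM the sham replicates were at 0.175, 0.194, 0.317, 0.881 and 1.66, and the pMCAO replicates at 0.293, 0.789, 0.202, 9.60 and 0.131. The highest level of each group was in the library with high Xist (sham replicate 5 and pMCAO replicate 4), and the other libraries were at 0.881 CPM or less. As Fabp4 did not pass the filter, it was compared only by an exact permutation test of log2 CPM (difference 0.40, p = 0.794), and the same test gave no p below 0.05 for the other 8 listed members (0.238 to 0.992), where 0.00794 is the smallest that 5 against 5 libraries allow. Fabp4 and Fabp5 are neighbours on chromosome 3, with Fabp4 at 10204088 to 10208576 on the minus strand.

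**Figure D3:**
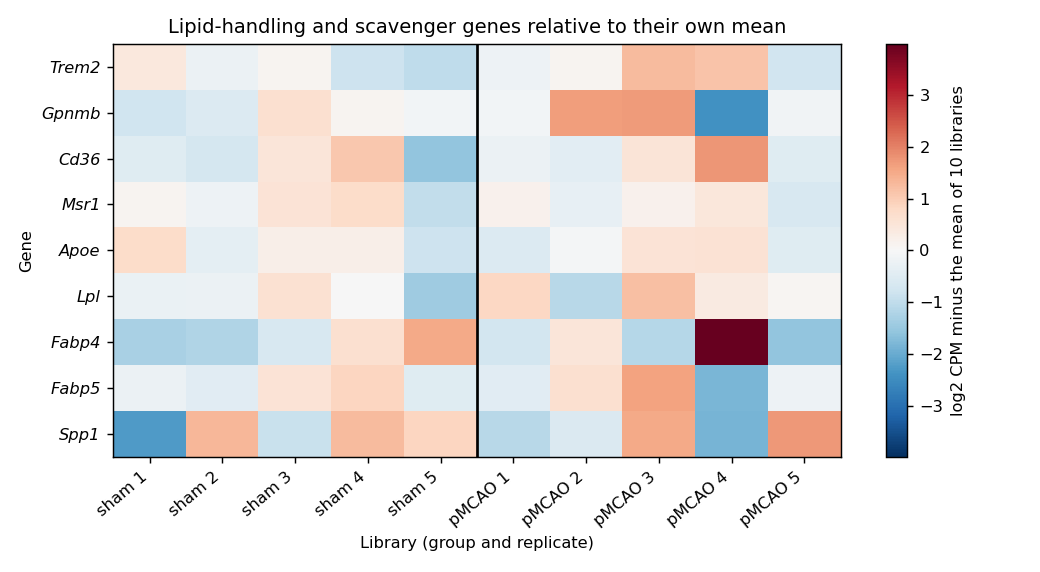
Log2 CPM of the 9 listed genes in each library, minus the mean of the gene over 10 libraries, with red above and blue below that mean and a line between sham and pMCAO. Within pMCAO, replicate 4 is high for Cd36, Trem2 and Fabp4 and low for Gpnmb, Fabp5 and Spp1, and sham replicate 5 is low for Cd36, Msr1, Apoe, Lpl and Trem2.

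Few pairs of members varied together over the libraries. Over 36 pairs, Pearson's r of log2 CPM was compared by permutation (100000 resamples, n = 10 libraries) and adjusted over the pairs, and 2 pairs passed. Fabp5 and Gpnmb correlated with r = 0.90 (permutation p = 0.00071, adjusted 0.0256; Spearman's rho = 0.76, permutation p = 0.0147, adjusted 0.265), and r was 0.68 once the 2 libraries lying farthest from the median of Fabp5 were left out. Cd36 and Msr1 correlated with r = 0.85 (permutation p = 0.00191, adjusted 0.0344; rho = 0.84, permutation p = 0.00381, adjusted 0.137), and r was 0.85 once those lying farthest from the median of Cd36 were left out. Neither pair passed by Spearman's rho. Apoe and Trem2 had r = 0.75 (permutation p = 0.0142, adjusted 0.171; rho = 0.72, permutation p = 0.0236, adjusted 0.283), which did not pass. The number of pairs that passed was 0 to 3 under other settings, and it was 0 without sham replicate 5 and pMCAO replicate 4. Without these libraries, which also leaves fewer to test, r was 0.82 for Fabp5 and Gpnmb and 0.82 for Cd36 and Msr1. With each library left out in turn, r was 0.81 to 0.94 for the former pair and 0.77 to 0.90 for the latter. Within groups, after centring on the group means, r was 0.92 for Fabp5 and Gpnmb and 0.90 for Cd36 and Msr1.

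**Figure D4:**
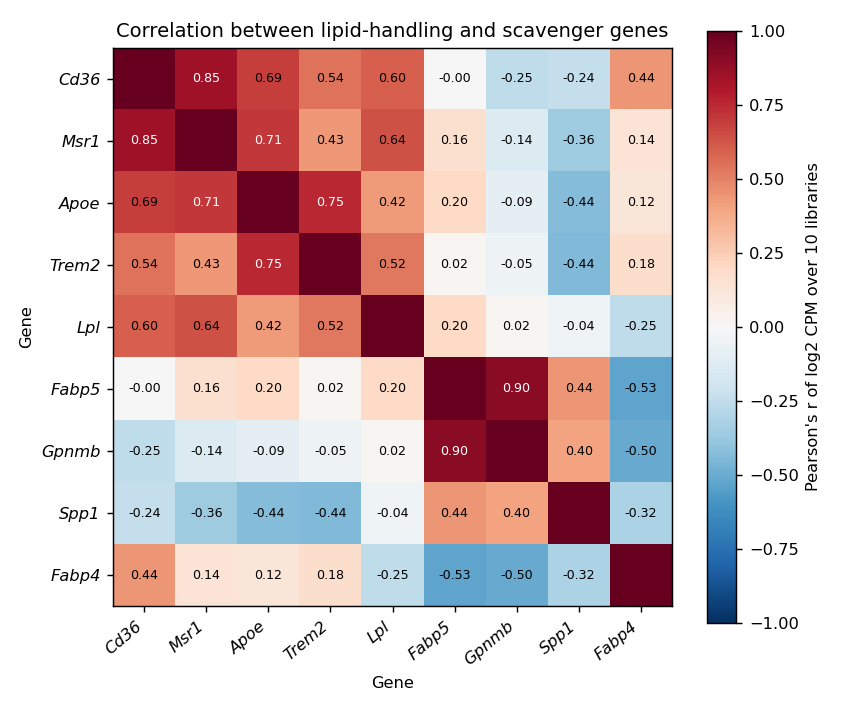
Pearson's r of log2 CPM over 10 libraries for each pair of the 9 listed genes, from −1 in blue to 1 in red. Cd36, Msr1, Apoe, Trem2 and Lpl form a block of positive values and Fabp5, Gpnmb and Spp1 another, and only Fabp5 with Gpnmb (0.90) and Cd36 with Msr1 (0.85) passed the adjusted permutation test.

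Each member was also set against the summed level of 8 marker lists (72 comparisons, adjusted over all), since a bulk level cannot tell fewer cells of a type from less RNA per cell. Msr1 rose with the macrophage markers (r = 0.91, permutation p = 0.0003, adjusted 0.0108; rho = 0.85, permutation p = 0.00291, adjusted 0.105; r = 0.73 once the 2 libraries lying farthest from the median of Msr1 were left out) and fell with the dendritic cell markers, led by Dpp4 (r = −0.93, permutation p = 0.00007, adjusted 0.00504; rho = −0.88, permutation p = 0.00165, adjusted 0.105; r = −0.85 without those libraries). No member and list pair passed with total counts, without both pools or without sham replicate 5, although r of Msr1 with the macrophage markers was 0.84 to 0.95 and with the dendritic cell markers −0.95 to −0.91 with each library left out in turn. Apoe and Cd36 had r of 0.80 and 0.72 with the macrophage markers, which did not pass (permutation, adjusted p = 0.141 and 0.153). Fabp4 had r = 0.80 with the endothelial markers (permutation, adjusted p = 0.153), and r was 0.13 without sham replicate 5 and pMCAO replicate 4. Of these markers, 7 of 12 were listed, and Tek, Tie1, Plvap, Gpihbp1 and Cldn5 were not. Their sum was 73.9 to 138 CPM in sham and 78.8 to 304 CPM in pMCAO, with 304 CPM in pMCAO replicate 4, where Lyve1, which macrophages also express, was the highest marker at 247 CPM. Leaving Lyve1 and Pecam1 out of the list, a choice made after seeing the data, the sum was 2.12 to 15.3 CPM and r with Fabp4 was 0.35 (permutation p = 0.312; rho = 0.079, permutation p = 0.838). The summed neutrophil, eosinophil and mast cell markers, which are mostly Mcpt1, had r = −0.71 with Cd36 (permutation, adjusted p = 0.153), and r was −0.48 without sham replicate 5 and pMCAO replicate 4. The part of these other cells in the levels of the members was not tested.

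Outside the set, the genes whose pattern within groups was most like that of a member were found by Pearson's r of group-centred log2 CPM among genes of at least 1 CPM on average, over 10 libraries and as a description only. They were Wwp1 (0.97) and Ms4a4a (0.96) for Cd36, Vwa5a (0.995) and Sema6d (0.98) for Msr1, and Cul4a (0.98) and Disp1 (0.95) for Trem2. Gpnmb was most like St14 (0.97) and Cdhr5 (0.96), and Fabp5 most like Tssc4 (0.97) and Cox5b (0.95). St14 encodes the epithelial protease matriptase and Cdhr5 a protocadherin of the enterocyte brush border. With the enterocyte markers, led by Fabp2, r was 0.69 for Gpnmb (permutation, adjusted p = 0.153) and 0.60 for Fabp5 (permutation, adjusted p = 0.211), and neither passed. Without sham replicate 5 and pMCAO replicate 4, r was 0.46 for Gpnmb and 0.32 for Fabp5. The genes named here are the 2 highest per member of a search over all such genes. The size of r that such a search gives for unrelated genes was not computed. For Apoe the genes were Ppp1r9b (0.95) and Fcgrt (0.95), for Lpl Pdgfb (0.95) and Rab18 (0.94), for Spp1 Spg11 (0.93) and Ccl22 (0.91), and for Fabp4 Gm9888 (0.94) and Ptpra (0.92).

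The genes around the members were read from the same edgeR fit in 9 lists, which together hold 151 genes, 136 of them tested. None passed an adjusted p of 0.05. An unadjusted p below 0.05 was found in 13 genes (9.56%, beside 4.71% of all genes), of which 9 were higher in pMCAO (2.26% of all genes were) and 4 lower (2.45%), and the median log2 fold change was 0.10. Groups did not overlap for 4 of the 137 listed genes (2.92%, beside 0.985%), among them Angptl4, Tfeb and Syk. The lists were fixed with earlier results of these data known, so neither share tests them against all genes. Syk, the kinase downstream of TYROBP, was named after its values were seen.

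Among the partners of lipoprotein lipase and the apolipoproteins (16 tested), 2 were higher and 1 lower at an unadjusted p below 0.05. Angptl4, the fasting-induced inhibitor of lipoprotein lipase and a target of the PPARs, was at 2.09, 3.27, 4.84, 2.52 and 3.60 CPM in sham and at 6.60, 13.6, 12.0, 8.37 and 6.71 CPM in pMCAO. Each pMCAO library was above each sham library, with a log2 fold change of 1.53 (SE 0.36, edgeR adjusted p = 0.922). Pltp, which transfers phospholipids between lipoproteins, had a log2 fold change of 0.47 (SE 0.20), and the most abundant genes of the list per kb, Apoc2 and the endoplasmic reticulum quality-control gene Sel1l, were at 0.25 (SE 0.33) and 0.26 (SE 0.26). The members Lpl and Apoe themselves overlapped between groups.

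Of the PPAR, LXR and RXR receptors with their coactivators and classical targets (17 tested), 3 were higher at an unadjusted p below 0.05 and none lower. Abca1, which exports cholesterol to apolipoprotein A-I, was at 283 ± 117 CPM in sham and 539 ± 175 CPM in pMCAO (SD, n = 5; log2 fold change 0.93, SE 0.30). The cholesterol exporter Abcg1 was at 41.5 ± 20.9 CPM and 78.9 ± 15.2 CPM (log2 fold change 0.93, SE 0.35). The ubiquitin ligase gene Mylip was at 36.5 ± 7.04 CPM and 64.4 ± 17.8 CPM (log2 fold change 0.82, SE 0.21). The groups overlapped for these 3 genes and the adjusted p was 0.922 for each (edgeR). Srebf1, a target of LXR that governs fatty acid synthesis, was at −0.50 (SE 0.25) and is named here after its values were seen. Cebpb, an abundant transcription factor of this list, was at −0.80 (SE 0.52).

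**Figure D5:**
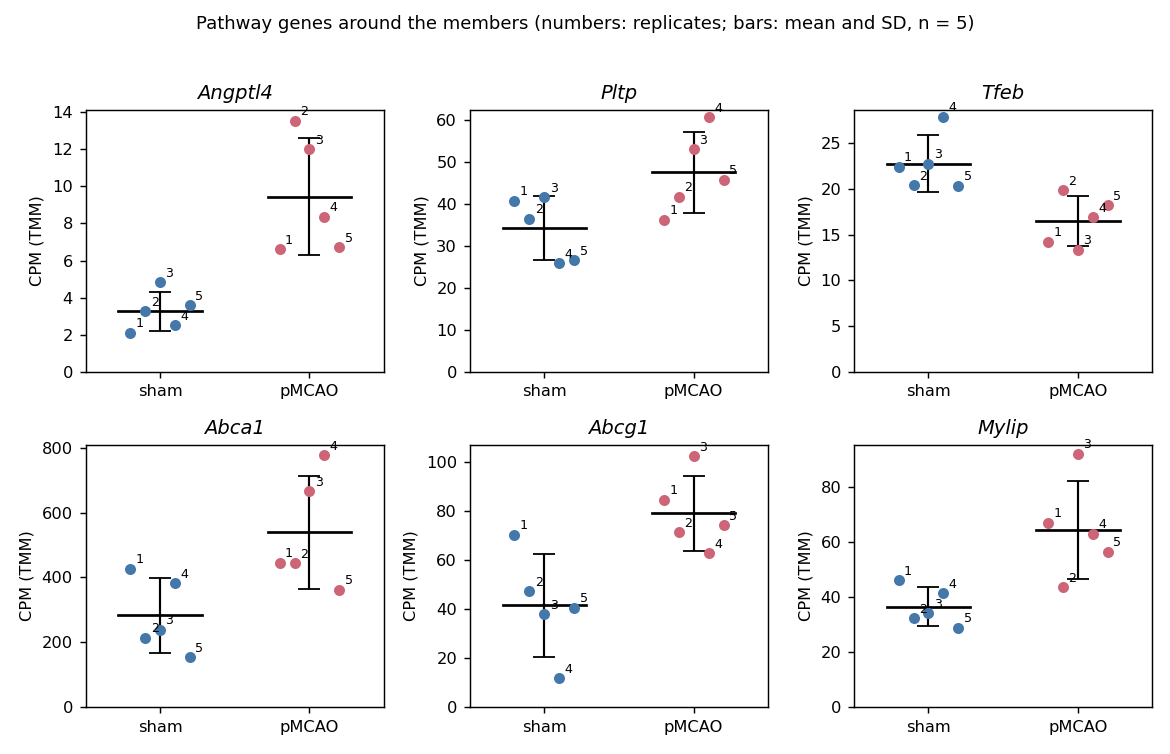
Level of 6 genes around the members in each library, in CPM scaled by TMM on linear axes from 0, with sham in blue, pMCAO in red, replicate numbers beside the points and the mean and SD of 5 libraries in black. The groups do not overlap for Angptl4 and Tfeb and overlap for Pltp, Abca1, Abcg1 and Mylip, and none of the 6 passed an adjusted p of 0.05.

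Other scavenger and endocytic receptors (15 tested) had a median log2 fold change of 0.35, with 2 higher at an unadjusted p below 0.05 and none lower. Lrp1, an endocytic receptor for apolipoprotein E, was at 155 ± 33.8 CPM in sham and 212 ± 50.3 CPM in pMCAO (SD, n = 5; log2 fold change 0.45, SE 0.21). The scavenger receptor Colec12 had a log2 fold change of 3.28 (SE 1.28), which came from 5.05 and 12.0 CPM in pMCAO replicates 3 and 4 beside at most 0.808 CPM in the other libraries. Axl, a receptor for apoptotic cells, was at 0.58 (SE 0.27, edgeR adjusted p = 0.922). The most abundant receptors per kb were Cd68 (log2 fold change 0.16, SE 0.22) and Mrc1 (0.39, SE 0.41).

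In fatty acid uptake, binding and activation (18 tested), 1 gene was lower at an unadjusted p below 0.05. This was Dbi, the acyl-CoA binding protein, at 176 ± 22.8 CPM in sham and 124 ± 23.2 CPM in pMCAO (SD, n = 5; log2 fold change −0.51, SE 0.16, edgeR adjusted p = 0.922). Cpt1a, the gate of mitochondrial fatty acid oxidation, and Acsl1, a fatty acid activating enzyme, were at 0.38 (SE 0.18) and 0.33 (SE 0.18). Fabp2, the enterocyte fatty acid binding protein, stood at 185 CPM per kb, beside 263 CPM per kb for Dbi, and had a log2 fold change of 0.038 (SE 0.60). Of the lipid droplet genes (15 tested), 1 was higher, the triglyceride lipase Pnpla2 (log2 fold change 0.46, SE 0.20). The droplet coat gene Plin2 was at 136 ± 60.9 CPM in sham and 199 ± 48.9 CPM in pMCAO (0.55, SE 0.27, edgeR adjusted p = 0.922). The cholesteryl ester hydrolases Nceh1 and Lipa were at 0.31 (SE 0.20) and 0.24 (SE 0.18).

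The adaptors and signalling genes of TREM2 (17 tested) included none with an unadjusted p below 0.05, and their median log2 fold change was −0.067. Tyrobp, the adaptor, was at 1041 ± 207 CPM in sham and 897 ± 162 CPM in pMCAO (SD, n = 5; log2 fold change −0.22, SE 0.20), and Hcst, the related adaptor DAP10, was at −0.48 (SE 0.23). Adam10 and Adam17, the proteases that shed TREM2, were at 0.27 (SE 0.13) and 0.32 (SE 0.16), and Ms4a7 at −0.14 (SE 0.34). Other genes of the lipid-associated and disease-associated states (19 tested) had a median of −0.22, below 0 in 11 of 19, with 1 lower at an unadjusted p below 0.05. It was the galectin gene Lgals1 (−0.68, SE 0.31). The lysosomal genes Ctsz and Cd63 were at −0.40 (SE 0.24) and −0.43 (SE 0.27), Cd52 at −0.22 (SE 0.18), and the beta-glucan receptor gene Clec7a at 0.25 (SE 0.31). Of the members named above as marks of the lipid-associated state, Gpnmb was at 0.82 (SE 0.62), Trem2 at 0.72 (SE 0.41) and Spp1 at 0.039 (SE 0.82). The sign of Spp1 turned under 6 of 20 other settings. The difference between these members and the list was not tested.

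Among the MiT/TFE transcription factors and their regulators (11 tested), Tfeb, the master regulator of lysosomal genes, was lower at an unadjusted p below 0.05, at 22.8 ± 3.09 CPM in sham and 16.5 ± 2.71 CPM in pMCAO (SD, n = 5; log2 fold change −0.46, SE 0.19, edgeR adjusted p = 0.922). Each pMCAO library was below each sham library. Flcn, Rragc and Fnip1, which hold these factors in check with nutrient signals, were at 0.27 (SE 0.23), 0.14 (SE 0.16) and 0.26 (SE 0.31), and the coactivator gene Ppargc1a, at 2.41 CPM on average, was at −1.04 (SE 0.75). Of the receptors and proteases of osteopontin (9 tested), 1 was higher, the αv integrin gene Itgav, at 190 ± 45.5 CPM in sham and 287 ± 65.02 CPM in pMCAO (log2 fold change 0.59, SE 0.21, edgeR adjusted p = 0.922). Itgb5 and Itga9 were at 0.41 (SE 0.27) and 0.34 (SE 0.24). Cd44 and Itga4, the most abundant of these receptors per kb, were at −0.092 (SE 0.17) and 0.23 (SE 0.20).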

How the data were processed

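For 5 sham and 5 pMCAO libraries the authors deposited raw counts per gene and, beside them, CPM values scaled to the library total over the listed genes, which differed from those recomputed from the counts by at most 0.0005. The deposited table also holds the authors' fold changes and p-values, which were not used. The submitters' processing notes name STAR, featureCounts and limma on GRCm38 (mm10). The versions, annotation and strand setting are not given in the sources used here, and every listed gene had at least 10 counts in at least 2 libraries. No library was a repeat of another (the lowest ratio of chi-square to its degrees of freedom between any 2 was 42.7).

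From the counts, genes were filtered with filterByExpr, scaled by TMM and compared with edgeR's quasi-likelihood test (edgeR 4.0.16, R 4.3.3) without covariates, adjusted by the Benjamini-Hochberg method over 16949 genes at 0.05. Single genes were also compared by two-sided exact permutation tests of log2 CPM (prior count 2, 252 assignments), and correlations by permutation in Python 3.11.15. Simulated counts with 200 changed genes served to test the fits. Depth was 6430643 to 60665972 counts per library. Lengths and positions came from GENCODE M21 on GRCm38 and promoter windows from RefSeq (GRCm38.p6). DESeq2 1.42.0 and limma 3.58.1 were alternatives.

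The members, lists, tests and alternatives were chosen with earlier results of these data known. The genes named are each member, the 3 genes of each pathway list with the smallest unadjusted p and the 2 with the highest CPM per kb, the highest and the unlisted markers of each cell type list, and the 2 genes most like each member. Some genes that this rule gives are not reported here.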

Additional observations from a re-analysis of the deposited data

Results flagged for a closer look

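In the pMCAO group the summed endothelial markers were distant in replicate 4, whose gap to the nearest library was 0.758 of the range of the group on the log2 scale, above the critical value of 0.71. Replicate 4 held 304 CPM of these markers beside 78.8 to 109 CPM in the other pMCAO libraries, and Lyve1 gave most of it. Cd36 (419 CPM) and Fabp4 (9.60 CPM) were highest in the same library, where Xist was at 4461 CPM. Of 34 groups of 5 libraries examined this was the only one so set apart, where 1.7 would be by chance, and no gene of the set was.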

How the results depend on the processing

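The count of members past an adjusted p of 0.05 was 0 under all 20 alternatives, and so was that of the pathway genes. Over all genes DESeq2 called 3, among them Rbp7 and Tppp3, and every other alternative 0. The median log2 fold change of the members was 0.069 to 0.52 with each library left out in turn, lowest without pMCAO replicate 3. Trem2 (0.13 to 1.06), Gpnmb (0.11 to 1.10) and Lpl (0.31 to 0.85) kept their direction throughout. Apoe turned with DESeq2 (0.012), its size factors in edgeR (0.012), total counts (0.0060), without both pools (0.32), and without sham replicates 1 (0.20), 3 (0.023) or 4 (0.014) or pMCAO replicates 1 (0.11), 2 (0.022) or 5 (0.097). Spp1 turned without both pools (−0.021), without sham replicates 1 (−0.25) or 3 (−0.18) and without pMCAO replicates 3 (−0.31) or 5 (−0.50). Fabp5 turned with quality weights in limma-voom (−0.18) and without pMCAO replicate 3 (−0.37), Cd36 without pMCAO replicate 4 (−0.15) and without that library and sham replicate 5 (−0.37), and Msr1 without sham replicate 4 (0.034). The cause was not tested. Cd36 was highest without sham replicate 4 (0.88), and without sham replicate 5 and pMCAO replicate 4 Msr1 was at −0.47, Apoe at −0.33 and Spp1 at 0.39. The correlated pairs numbered 0 to 3 with single libraries left out, and 0 without sham replicate 5 and pMCAO replicate 4. Without these libraries r was still 0.82 for Fabp5 and Gpnmb and 0.82 for Cd36 and Msr1. Member and marker list pairs numbered 0 to 3 with single libraries left out, 0 with total counts, 0 without both pools and 1 without sham replicate 5 and pMCAO replicate 4.

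Deviations of libraries with the same replicate number correlated at −0.0055 to 0.37 (mean 0.20), highest in replicates 5 (0.37) and 2 (0.34) and not all above 0.1. Of the 10 libraries, 5 were most like their own number among the 5 libraries of the other group. The labels do not say whether the numbers mark pairs, and the main fit did not take them as pairs. Whether libraries of the same number belong together was not tested. With the replicate block, edgeR called 0 genes and gave 1303 of 16949 an unadjusted p below 0.05, against 799 without it. Cd36 was at 0.47 (SE 0.17, against 0.53 without the block), below an unadjusted p of 0.05, and Apoe (0.018) and Spp1 (−0.030) turned. The SE of Msr1 was 0.14 with the block and 0.30 without it. Exact sign flips over 5 pairs cannot go below 0.0625.

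Counts per library were low for Fabp4 (2 to 128), Spp1 (8 to 368), Gpnmb (14 to 552) and Fabp5 (19 to 309), which limits the precision of their levels.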
